A study of Mus musculus with 12 samples.

Results

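Neural cell adhesion molecule 1 (Ncam1), the cadherins Cdh2, Cdh11 and Cdh13, and the adhesion receptors Vcam1, Icam1, Alcam and Mcam were followed in hernia-associated fibroblasts treated with estradiol, with the estrogen receptor antagonist fulvestrant, or with both. The 8 genes were chosen by name as surface molecules through which fibroblasts hold on to each other and to leukocytes, and all 8 were found among the 13233 genes of the expression table. RNA-seq was made from primary skeletal muscle fibroblasts of Aromhum mice, which carry the human aromatase gene on a bacterial artificial chromosome and turn androgen into estrogen in their tissues. Every group therefore came from the same transgenic genotype, and no wild-type fibroblasts were compared. The cells came from the lower abdominal muscle of male mice, were enriched by preplating, and had been starved of serum and phenol red before treatment.

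The 4 groups held 3 samples each, numbered 1 to 3. Vehicle cultures received ethanol and DMSO, E2 cultures received 10 nM estradiol, fulvestrant cultures received 100 nM fulvestrant, and E2 plus fulvestrant cultures received 10 nM estradiol with 100 nM fulvestrant. Cells were harvested at 48 h. The sources do not say whether the replicate numbers stand for separate mice, so the p-values measure only the spread between these samples, which may be technical. The ages of the donor mice were not given in the sources used here.

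Adhesion molecules of the immunoglobulin type (Ncam1, Vcam1, Icam1, Alcam, Mcam) carry extracellular immunoglobulin domains and bind to copies of themselves, to one another or to integrins. Classical cadherins such as Cdh2 (N-cadherin) and Cdh11 (OB-cadherin, the cadherin typical of mesenchymal cells) bind like to like across the gap between cells when calcium is present, and attach to actin through catenins. Cdh13 (T-cadherin) lacks the cytoplasmic tail, is anchored in the membrane by a lipid, and also binds adiponectin and low-density lipoprotein. Vcam1 and Icam1 are the receptors by which stromal and endothelial cells hold leukocyte integrins, and their genes are classical targets of NF-kappaB.

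The cells were checked before the adhesion genes were read. All 10 fibroblast markers were listed, and none of 12 myogenic markers was. Of the markers of other cells, 2 of 10 endothelial (Flt1 and Tek), 3 of 9 Schwann cell, 3 of 10 leukocyte and 4 of 10 pericyte and smooth muscle markers were listed, while the defining genes Pecam1, Cdh5, Sox10, Ptprc and Rgs5 were not. The table keeps only genes with at least 10 reads in every library, so a gene that is not listed was low in at least 1 library and need not be absent from all. Reads on listed genes, inferred from the steps between the normalized values, ran from 18827792 to 44040507 per library. Pgr, the progesterone receptor and a textbook estrogen target, had normalized counts of 25.4, 85.3 and 104 with vehicle and 145, 268 and 304 with E2. It had 14.8, 28.4 and 27.0 with E2 plus fulvestrant and 13.0, 21.5 and 16.2 with fulvestrant. The E2 samples lay above every other group, and the fulvestrant samples lay below those of vehicle.

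Replicate 1 stood apart from replicates 2 and 3 in every group, and this was the largest source of spread for 6 of the 8 genes. Replicate number took 93.1% of the sum of squares of the log2 levels for Vcam1, 78.0% for Ncam1, 76.8% for Icam1, 66.0% for Alcam, 59.6% for Mcam and 58.5% for Cdh2, beside a median of 57.7% over all genes. Treatment took more than replicate number for Cdh11 (62.1% against 31.7%) and Cdh13 (70.2% against 6.91%), beside a median of 17.9% for treatment over all genes. Ncam1, Cdh2, Cdh11 and Alcam were highest in replicate 1 in all 4 groups, and Vcam1, Icam1 and Mcam were lowest there in all 4, a pattern that 29.8% and 32.3% of all genes showed. Vcam1 was between 3.52 and 5.51 times higher in the mean of replicates 2 and 3 than in replicate 1, whereas Ncam1 was between 1.80 and 2.81 times higher in replicate 1. In the same libraries the summed pericyte and smooth muscle markers reached 7394 to 8439 in replicate 1 against 4608 to 6388 in the others, and the summed leukocyte markers 285 to 487 against 168 to 269. In the fulvestrant group Acta2 ran against the pericyte sum, with 3058, 4216 and 4448 in replicates 1 to 3, and Cspg4, with 4160, 1963 and 1859, carried it. The leukocyte sum was carried by Lyz2, with 340, 97.4 and 83.0 in vehicle replicates 1 to 3, while Cd68 ran the other way there, with 49.6, 84.4 and 77.7. The summed endothelial markers, which are Flt1 and Tek alone, were lower in replicate 1, at 115 to 189.7 against 248.5 to 467. With vehicle Tek carried that sum, with 58.4, 262 and 277 in replicates 1 to 3, while Flt1 ran the other way, with 131, 79.2 and 90.4. Single fibroblast markers split as well. With vehicle Dcn was low in replicate 1 (32211, 107287 and 102207) and Col1a1 was high there (95391, 46852 and 46627). The part of all these markers in the levels of the adhesion genes was not tested.

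**Figure D1:**
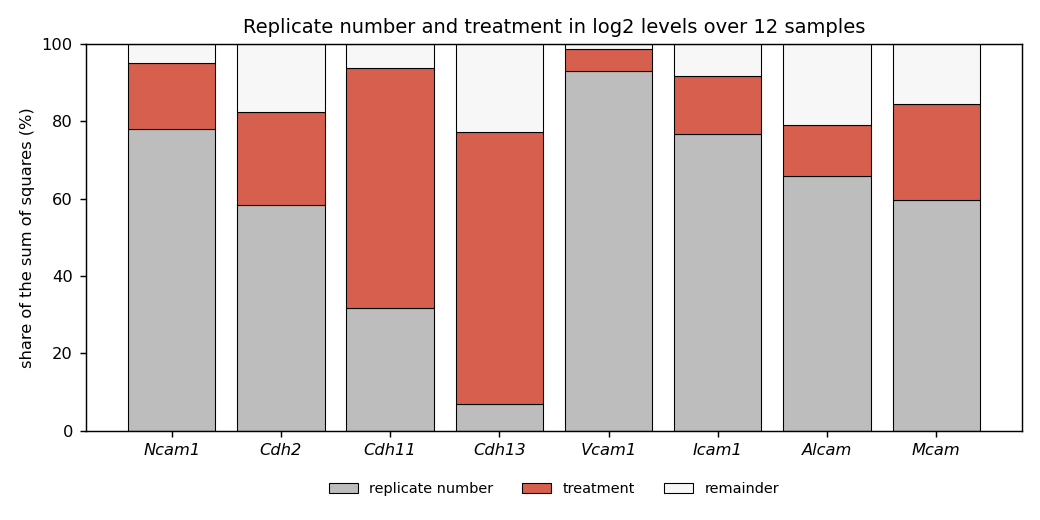
Share of the sum of squares of log2 levels over the 12 samples (vertical axis, %) taken by replicate number (grey), by treatment (red) and by the remainder (white), 1 bar per gene. Replicate number fills most of the bar for Vcam1 (93.1%) and Ncam1 (78.0%), and treatment fills most of it for Cdh13 (70.2%) and Cdh11 (62.1%).

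For that reason the replicate number was kept as a block in the fit. A gene was called where the adjusted p of limma (Benjamini-Hochberg over all genes) was under 0.05 and the fold change was over 1.2. Each call on the 8 genes is given with what it became without the block and with a replicate number left out of all groups.

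The genes differed widely in level. Per kilobase of exon, Cdh11 had a mean normalized count of 3105 over the 12 samples and ranked 300 of 13154 genes with a known length. Cdh2 (414), Vcam1 (399) and Icam1 (371) followed, and their ranges over the samples overlapped one another. Alcam (122), Cdh13 (86.5) and Ncam1 (69.5) formed a lower band with overlapping ranges, and Mcam was lowest at 31.6, with 63 to 182 inferred reads per library and a range of 22.4 to 43.4 that reached into that of Ncam1. No exon of the 8 shared bases with another gene on the same strand, and reads had been counted by strand. Within the vehicle group the same order was seen except that Ncam1, at 85.1 ± 55.5 (SD, n = 3) per kilobase, stood above Cdh13, at 64.2 ± 6.04, and the difference lay within the spread of Ncam1. The place of Vcam1 mixes unlike replicates. In replicates 2 and 3 it had 444 to 624 per kilobase and lay above Cdh2 and Icam1 in all 4 groups. In replicate 1 it had 89.3 to 166 per kilobase, within the range of the lower band, and with fulvestrant it lay there below Cdh13 (143), Alcam (138) and Ncam1 (96.3).

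**Figure D2:**
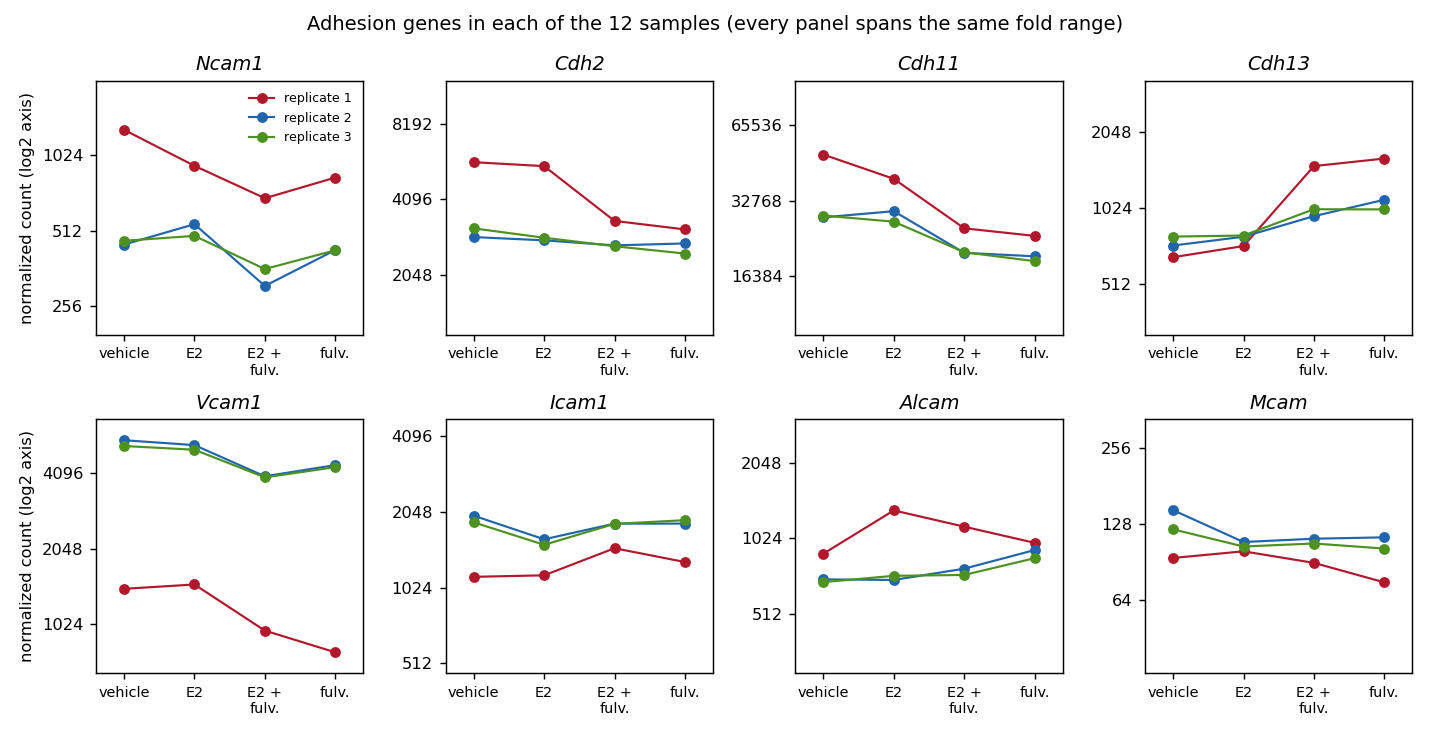
Normalized count of each gene (vertical axis, log2 scale, the same fold range in every panel) in the vehicle, E2, E2 plus fulvestrant and fulvestrant groups, with a line for each of replicates 1 to 3. Replicate 1 (red) runs above the others for Ncam1, from 690.3 to 1293, and below them for Vcam1, from 792 to 1475, while the lines for Cdh11 step down and those for Cdh13 step up in the fulvestrant groups.

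E2 was compared with E2 plus fulvestrant to ask which adhesion genes depend on the estrogen receptor when estradiol is present. Ncam1, Cdh11 and Vcam1 were higher with E2 alone, and Icam1 was lower. Thus 4 of the 8 genes were called, 3 higher and 1 lower, where 9.6% of all genes were called, 4.62% higher and 4.97% lower. Without the replicate block none of the 8 was called by limma and 2 had an unadjusted p under 0.05, and the share of all genes called dropped to 0.521%. Without replicate 1 again 4 were called, Cdh13 in place of Icam1, and 12.2% of all genes. Without replicate 2 or 3 none of the 8 was called by limma, 6 and 5 had an unadjusted p under 0.05, and 2.58% and 2.39% of all genes were called. The median log2 difference over the 8 genes was 0.16, beside -0.01 over all genes. The direction was the same in all 3 replicate pairs for 6 of the 8, and for 50.0% of all genes.

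Ncam1 lies on mouse chromosome 9 (GRCm38, 49502136 to 49798925, minus strand). It encodes a receptor that binds copies of itself and signals through the FGF receptor. Its normalized counts were 929, 544 and 489 with E2 and 690.3, 309 and 361 with E2 plus fulvestrant. Each E2 sample lay above its partner of the same number, but the groups overlapped because replicate 1 of the antagonist group lay above replicates 2 and 3 of the E2 group. The log2 difference was 0.56 ± 0.125 (SE), with a 95% interval of 0.28 to 0.84 and an adjusted p of 0.0158, so the level with E2 was 147% of that with E2 plus fulvestrant. The adjusted p was 0.992 without the block. It was 0.0042 without replicate 1, 0.186 without replicate 2 and 0.114 without replicate 3. Ncam1 was itself singled out in the study from these samples, so its difference here is not independent evidence.

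Cdh11 lies on chromosome 8 (102632095 to 102785642, minus strand). Its counts were 40014, 29744 and 27017 with E2 and 25421, 20300.5 and 20415 with E2 plus fulvestrant. The groups did not overlap, which held for 12.5% of all genes in this comparison. Cdh11 differed by 0.54 ± 0.104 on the log2 scale, with an adjusted p of 0.0079, and the level with E2 was 145% of that with E2 plus fulvestrant. The difference was 0.65, 0.55 and 0.40 in replicates 1, 2 and 3. It was called without replicate 1 (adjusted p 0.00125) and not without replicate 2 (0.0984), replicate 3 (0.0908) or the block (0.673).

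Cdh2 is on chromosome 18 (16588877 to 16809246, minus strand) and Cdh13 on chromosome 8 (118283733 to 119324921, plus strand). Neither was called in this comparison. Cdh2 had counts of 5553, 2812 and 2880.0 with E2 and 3360.2, 2685 and 2664 with E2 plus fulvestrant. Its log2 difference of 0.30 ± 0.143 (adjusted p 0.203) lay mostly in replicate 1, at 0.72, against 0.07 and 0.11 in the others. Cdh13 ran the other way, with 722, 786 and 795 with E2 and 1503, 949.5 and 1012 with E2 plus fulvestrant, and these groups did not overlap. Its log2 difference was -0.56 ± 0.171 with an adjusted p of 0.0577, and it passed the test without replicate 1, at -0.31 with an adjusted p of 0.0303.

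Vcam1 lies on chromosome 3 (116109949 to 116129688, minus strand) and is the ligand of the alpha-4 beta-1 integrin. Its counts were 1475, 5294 and 5074 with E2 and 966, 3976 and 3937 with E2 plus fulvestrant. E2 was above its partner in all 3 pairs, although the groups overlapped through the low replicate 1. Its fitted log2 difference was 0.46 ± 0.107 with an adjusted p of 0.0189, and E2 stood at 138% of E2 plus fulvestrant. Without replicate 1 the difference was 0.39 with an adjusted p of 0.000704. It was not called without replicate 2 (0.144), replicate 3 (0.115) or the block (0.995).

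Icam1 lies on chromosome 9 (21015985 to 21028817, plus strand) and binds the beta-2 integrins of leukocytes. Its counts were 1146, 1595 and 1516 with E2 and 1469, 1841 and 1837 with E2 plus fulvestrant. All 3 pairs were lower with E2, with overlapping groups. On the log2 scale Icam1 differed by -0.28 ± 0.0807 with an adjusted p of 0.0463, an E2 level at 82.3% of the level with the antagonist. This was the call closest to the threshold. It was lost under quantile normalization (0.0712) and when all libraries were scaled to the same total (0.0662). It was also lost without replicate 1, where the fold was too small (-0.24), without replicate 2 (0.17), without replicate 3 (0.235) and without the block (0.991).

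Alcam on chromosome 16 (52248996 to 52454074, minus strand), which binds CD6 and copies of itself, and Mcam on chromosome 9 (44134469 to 44142727, plus strand), a receptor for laminin that contains the alpha-4 chain, did not pass the test. Alcam had counts of 1325, 700.1 and 727 with E2 and 1141, 776 and 733 with E2 plus fulvestrant. Mcam had 99.6, 109 and 104 against 89.6, 112 and 107. The log2 difference was 0.02 for both, with 95% intervals of -0.26 to 0.29 for Alcam and -0.28 to 0.33 for Mcam, and changes within those limits cannot be told from none.

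Promoter sequences of RefSeq (GRCm38.p6, 250 bases before to 50 bases after the annotated start) were at hand for only 3 of the 8 genes. All 3 are shown, and they were not chosen by their calls. The windows lie at chr9:21015690-21015989 on the plus strand for Icam1, chr9:44134408-44134707 on the plus strand for Mcam and chr16:52453032-52453331 on the minus strand for Alcam. Capitals mark the motifs that were searched on both strands.
Icam1: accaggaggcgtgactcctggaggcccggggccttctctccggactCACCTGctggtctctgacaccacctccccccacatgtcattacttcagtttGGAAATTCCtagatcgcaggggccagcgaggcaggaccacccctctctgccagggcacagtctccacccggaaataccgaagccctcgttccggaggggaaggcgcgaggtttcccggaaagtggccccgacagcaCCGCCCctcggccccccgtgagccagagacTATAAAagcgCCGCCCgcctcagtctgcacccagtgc
Mcam: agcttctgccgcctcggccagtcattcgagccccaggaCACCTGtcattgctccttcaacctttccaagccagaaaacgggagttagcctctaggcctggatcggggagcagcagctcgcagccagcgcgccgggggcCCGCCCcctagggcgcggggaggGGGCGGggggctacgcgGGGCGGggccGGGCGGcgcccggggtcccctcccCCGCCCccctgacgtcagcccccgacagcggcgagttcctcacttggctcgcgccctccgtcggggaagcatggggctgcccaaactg
Alcam: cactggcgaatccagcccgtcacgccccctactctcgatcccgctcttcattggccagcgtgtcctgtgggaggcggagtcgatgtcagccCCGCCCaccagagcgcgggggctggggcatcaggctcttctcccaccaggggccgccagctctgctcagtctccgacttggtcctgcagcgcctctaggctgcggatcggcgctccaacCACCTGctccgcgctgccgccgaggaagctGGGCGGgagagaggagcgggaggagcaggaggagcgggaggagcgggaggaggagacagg

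The Icam1 window held the NF-kappaB motif GGAAANTCC as GGAAATTCC at position -153 from the RefSeq start, a motif found in 1.25% of 32851 windows of the same length. It also held TATAAA (13.6% of windows). The TATAAA lay at position 14, past the RefSeq start and before the GENCODE start, which is 45 bases further along. The Mcam window held 5 GC boxes (GGGCGG, in 35.7% of windows), and Icam1 and Alcam held 2 each. The E box CACCTG, in 20.2% of windows, was present in all 3. Neither the palindromic estrogen response element consensus, found in 0.07% of windows, nor its repeat unit GGTCA, found in 40.5%, occurred in these 3 windows. The annotated starts of all 3 genes differ between RefSeq and GENCODE. For Mcam the GENCODE start is at position -189 from the RefSeq start, so its 5 GC boxes lie past it. For Alcam it is at -993, so the whole window lies inside the GENCODE gene. These matches describe letters in short windows and show no binding.

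Fulvestrant was compared with vehicle to ask what the antagonist does to the same genes when no estradiol is added. Cdh11 and Vcam1 were lower and Cdh13 was higher with fulvestrant. These were 3 of the 8 genes, 1 higher and 2 lower, where 12.5% of all genes were called, 6.76% higher and 5.69% lower. Without the block none of the 8 was called by limma, 2 had an unadjusted p under 0.05, and 0.544% of all genes were called. Without replicate 1, 4 were called, Alcam being added, and 17.5% of all genes. Without replicate 2 or 3 only Cdh11 was called, beside 4.08% and 3.02% of all genes. In a fit of the fulvestrant and vehicle samples alone, with the block, only Cdh11 of the 8 was called. The direction was the same in all 3 pairs for 7 of the 8, and for 45.1% of all genes.

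Cdh11 had counts of 49971, 28107 and 28574 with vehicle and 23713, 19666 and 18812 with fulvestrant, and the groups did not overlap, which held for 11.1% of all genes here. The log2 difference was -0.73 ± 0.104 with an adjusted p of 0.00119, a fulvestrant level at 60.2% of vehicle. Cdh11 was the only one of the 8 called here whichever replicate number was left out, with adjusted p values of 0.000358, 0.0209 and 0.0406 without replicates 1, 2 and 3. It was not called without the block (0.353).

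Cdh13 had counts of 652, 726 and 787 with vehicle and 1611, 1104 and 1010.3 with fulvestrant, again with no overlap. In the fit its log2 difference was 0.76 ± 0.171 with an adjusted p of 0.0135, and the fulvestrant level was 169% of vehicle. The difference was 1.30 in replicate 1 against 0.60 and 0.36 in replicates 2 and 3, and without replicate 1 it was 0.48 with an adjusted p of 0.00233. It was not called without replicate 2 (0.0957), replicate 3 (0.0634), the block (0.202) or the other groups (0.0537).

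Vcam1 had counts of 1417, 5536 and 5251 with vehicle and 792, 4407 and 4325 with fulvestrant. Fulvestrant was lower in all 3 pairs. The log2 difference was -0.48 ± 0.107 with an adjusted p of 0.0126, a level at 71.6% of vehicle, and without replicate 1 it was -0.30 with an adjusted p of 0.00236. The call was lost without replicate 2 (0.0825), replicate 3 (0.0767), the block (0.957) or the other groups (0.0649).

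The other 5 genes were not called. Ncam1 had 1293, 452 and 467 with vehicle and 834, 429 and 428 with fulvestrant. Its log2 difference of -0.28 ± 0.125 (adjusted p 0.162) lay mostly in replicate 1, at -0.63, against -0.07 and -0.13 in the others. Cdh2 had 5758, 2898 and 3138 with vehicle and 3109, 2733 and 2491 with fulvestrant, a log2 difference of -0.44 ± 0.143 (adjusted p 0.0632). It too lay mostly in replicate 1, at -0.89, against -0.08 and -0.33. Cdh2 was called under quantile normalization (0.0417) and with equal library totals (0.0473). Alcam had 891, 704 and 686 against 984, 921 and 855, a log2 difference of 0.28 (adjusted p 0.155), and it was called without replicate 1, at 0.35 with an adjusted p of 0.0103. Mcam had 93.7, 145 and 122 against 74.9, 113 and 102, lower in all 3 pairs, with a log2 difference of -0.31 (adjusted p 0.155). Icam1 had 1130.4, 1980.0 and 1863 against 1295, 1842 and 1901, a log2 difference of 0.04 (95% interval -0.14 to 0.22).

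**Figure D3:**
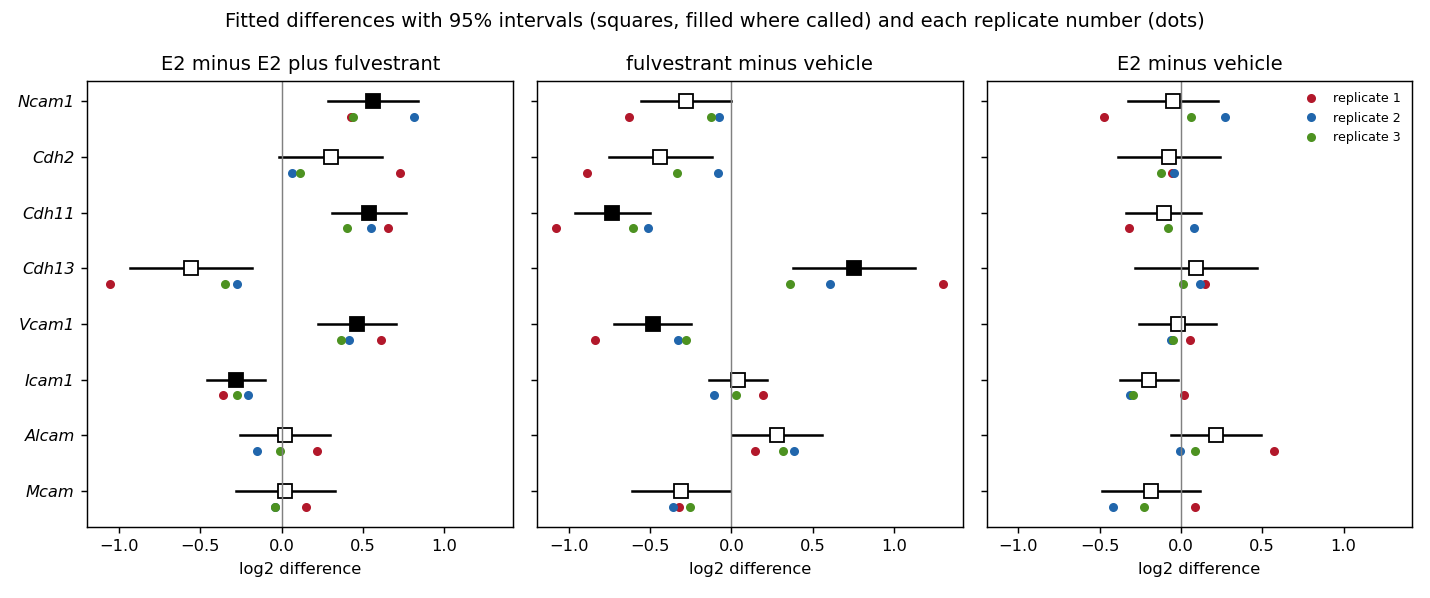
Log2 differences (horizontal axis) of the 8 genes for E2 minus E2 plus fulvestrant, fulvestrant minus vehicle and E2 minus vehicle, as fitted values with 95% intervals (squares, filled where called) and as the difference within each replicate number (dots). Cdh11 and Vcam1 are to the right of 0 in the left panel (0.54 and 0.46) and to the left of it in the middle panel (-0.73 and -0.48), Cdh13 lies the opposite way, and no square is filled for E2 minus vehicle.

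E2 was compared with vehicle to ask whether added estradiol alone moved the genes. None of the 8 was called by limma, 1 had an unadjusted p under 0.05, and 0.0756% of all genes were called. The direction was the same in all 3 pairs for 2 of the 8 (Cdh2 and Cdh13), against 39.0% of all genes, and the groups overlapped for each of the 8, while 5.19% of all genes showed no overlap. The log2 differences were between -0.20 for Icam1 and 0.22 for Alcam. The Alcam value lay mostly in replicate 1, at 0.57, and was 0.04 without it. For Ncam1 the difference was -0.05 with a 95% interval of -0.32 to 0.23, made up of -0.48 in replicate 1 and 0.27 and 0.06 in replicates 2 and 3. For Cdh11 it was -0.11 (-0.34 to 0.12), for Vcam1 -0.02 (-0.26 to 0.22) and for Cdh13 0.09 (-0.28 to 0.47). Icam1 was lower with E2 in replicates 2 and 3, with log2 differences of -0.31 and -0.30, and not in replicate 1, at 0.02.

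E2 plus fulvestrant was compared with fulvestrant to ask what estradiol did in the presence of the antagonist. None of the 8 genes, and 0 of the 13233 genes, was called by limma. At an unadjusted p under 0.05 these counts were 1 and 255. The gene of the 8 was Ncam1, named after its value was seen, at a log2 difference of -0.33 ± 0.125 (adjusted p 1.00). Ncam1 was lower and Cdh11 higher in all 3 pairs, 2 of the 8, against 23.8% of all genes with 1 direction in all pairs. The groups overlapped for each of the 8, while 2.42% of all genes showed no overlap.

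The difference between the effect of fulvestrant with and without estradiol was tested as an interaction. None of the 8 genes was called by limma, none had an unadjusted p under 0.05, and over all genes these counts were 0 and 501. Without replicate 1, 0 of the 8 were called, 3 had an unadjusted p under 0.05, and over all genes these counts were 11 and 1386. The interaction was 0.28 for Ncam1 (95% interval -0.11 to 0.67, and 0.05 to 0.53 as a replicate number was left out), -0.24 for Icam1 (-0.49 to 0.01) and 0.20 for Cdh13 (-0.33 to 0.73). Genes called in one of the 2 comparisons and not in the other were therefore not shown to respond differently, and the intervals do not show that they responded alike.

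With the 6 samples that received fulvestrant set against the 6 that did not, 5 of the 8 genes were called, 1 higher and 4 lower, where 15.5% of all genes were called, 7.71% higher and 7.81% lower. This comparison uses the same samples as those above. Cdh11 fell by 0.63 on the log2 scale (adjusted p 0.000133), Vcam1 fell by 0.47 (0.00111), Ncam1 fell by 0.42 (0.00526) and Cdh2 fell by 0.37 (0.0197), while Cdh13 rose by 0.66 (0.00243). Cdh11, Cdh13, Vcam1 and Ncam1 were called whichever replicate number was left out, and without replicate 1 these were 4 of the 8 beside 17.6% of all genes. Without replicates 2 and 3, 5 and 4 of the 8 were called, beside 1394 and 1335 of the 13233 genes. Without replicate 1 the rise of Cdh13 was 0.40. Cdh2 was not called without replicate 1, where it fell by 0.15, or without replicate 3 (0.0898). Without the block, where 2.34% of all genes were called, only Cdh13 of the 8 was (0.042), and Cdh11 had an adjusted p of 0.0884. Icam1 (0.16), Alcam (0.13) and Mcam (-0.17) were not called.

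The summed fibroblast markers also differed between the groups. They ran from 513714 to 572826 with E2 and from 367776 to 384425 with E2 plus fulvestrant, and from 446707 to 498633 with vehicle and from 335780 to 403791 with fulvestrant. The sum was thus lower with the antagonist, as were Cdh11 and Vcam1, whereas Cdh13 was higher, and it was higher with E2 than with vehicle in all 3 pairs, a comparison in which none of the 8 genes was called by limma. Most of the sum came from Col1a1, Col1a2, Col3a1 and Dcn, with vehicle means of 62957, 160241, 111847 and 80568. Of the 10 markers, 5 were called in the E2 comparison, all higher without the antagonist (Col1a1, Col1a2, Col3a1, Esr1 and Lum). With fulvestrant alone 4 were called lower, the same without Col1a2. These stood beside 9.6% and 12.5% of all genes called in either direction. Pdgfra and Pdgfrb were called in neither, and without replicate 1 Pdgfra was called in both. Without the block 0 of the 10 were called by limma in either comparison, and without replicate 1 these counts were 9 and 7. Fbln1 was not called and had the opposite sign (-0.21 and 0.32), and without replicate 1 it was called higher with E2 (0.31). Esr1, the gene of the estrogen receptor itself, had counts of 646, 516 and 489 with E2 and 216, 87.1 and 76.4 with E2 plus fulvestrant. The part of the fibroblast markers in the differences of the adhesion genes was not tested, and in bulk RNA fewer cells of a type and less RNA per cell cannot be told apart.

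Correlations (Pearson) of the log2 levels were computed over the 12 samples after the mean of each replicate number was subtracted, and describe samples that share treatments and libraries. Cdh11 correlated with Vcam1 at 0.92 and with Cdh2 at 0.88, and Cdh13 correlated with Cdh2 at -0.95, with Cdh11 at -0.95 and with Vcam1 at -0.93. Ncam1 correlated with Cdh11 at 0.80 and with Vcam1 at 0.73. Alcam had no value beyond -0.44 and 0.25 with the other genes, and Icam1 and Mcam correlated at 0.14. Without that subtraction the value for Ncam1 and Vcam1 was -0.76 and that for Cdh11 and Vcam1 -0.34, since replicate 1 was high for Ncam1 and Cdh11 and low for Vcam1.

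The genes whose replicate-centred pattern over the 12 samples was most like each of the 8 were read from the whole table. Tgfb2, Spats2l and Fbln5 below were also picked in the study, partly from these samples. For Cdh11 they were Tgfb2 (0.99), a TGF-beta ligand, Spats2l (0.99) and the protocadherin Pcdh18 (0.99). For Cdh13 they were Gpnmb (0.99), Camk2d (0.99) and Nptx1 (0.99), and for Cdh2 they were Hs6st1 (0.98), the guidance molecule Sema3a (0.98) and Pkp4 (0.98), a junction protein. Vcam1 was closest to Sdc2 (0.98), a syndecan, Fbln5 (0.98), a fibulin of elastic fibres, and H2afy2 (0.98). The likeness was lower for Ncam1, with Tmem121, Copg1 and the protocadherin Pcdhgb7 at 0.93, 0.93 and 0.92. It was also lower for Alcam (Gm21992, Espl1 and Naf1, 0.90 to 0.91), Icam1 (Wdr73, Bhlhe40 and Ntng2, 0.90 to 0.91) and Mcam (Gng8, Vipas39 and Psrc1, 0.87 to 0.90).

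Other members of the 2 families were read from lists. Of 42 further immunoglobulin-type adhesion molecules 21 were listed. With E2 against E2 plus fulvestrant 2 were called higher and 3 lower, and with fulvestrant against vehicle 3 were called higher and 1 lower. These were 23.8% and 19.0% of the list, beside 9.6% and 12.5% of all genes. The medians were 0.11 and -0.06, beside -0.01 and 0.01 over all genes. Nectin1, an adherens junction protein, was lower with E2 (log2 difference -0.62, adjusted p 0.0055) and higher with fulvestrant (0.58, 0.00605). The poliovirus receptor Pvr, a nectin-like molecule, was lower with E2 (-0.81, 0.000501) and higher with fulvestrant (0.87, 0.000339). Nrcam, of the L1 family, was lower with E2 (-0.75, 0.043) and higher with fulvestrant (1.12, 0.00579). The lipid-anchored molecules Opcml (1.57, 0.0267) and Negr1 (0.35, 0.00958) were higher with E2 and were not called with fulvestrant. None of the 21 was called in either comparison without the block.

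Of 40 other cadherins and protocadherins 16 were listed. With E2 against E2 plus fulvestrant 4 were called higher (Cdh18, Pcdh18, Pcdh19 and Pcdh7) and 2 lower (Pcdh1 and Pcdh9), with a median of 0.39 beside -0.01 over all genes. With fulvestrant against vehicle 1 was called higher (Pcdh9) and 7 lower (Cdh18, Cdh24, Dchs1, Fat1, Pcdh18, Pcdh19 and Pcdh7), with a median of -0.35 beside 0.01. The called genes were 37.5% and 50.0% of the list, beside 9.6% and 12.5% of all genes. Pcdh7 was also picked in the study from these samples. Pcdh18 had counts of 6189.5, 6650 and 6442 with E2 and 2653, 3753 and 3896 with E2 plus fulvestrant, and the groups did not overlap. Its log2 difference was 0.92 (adjusted p 0.000649), and -1.02 (0.000351) with fulvestrant against vehicle. Pcdh18 was the only one of the 16 called without the block, in both comparisons. Cdh18, a type II classical cadherin, had 451, 90.7 and 83.1 with E2 against 94.5, 42.2 and 28.8, a log2 difference of 1.61 (0.00416), and was at -1.49 (0.00516) with fulvestrant. Cdh24, another type II cadherin (-0.89, 0.0443), and Dchs1, a large cadherin of planar cell polarity (-0.67, 0.0383), were lower with fulvestrant. Without replicate 1 the fulvestrant calls of Cdh24 (adjusted p 0.1), Fat1 (0.179) and Pcdh7 (0.0717) were lost. Cdh26 was not called in either comparison (0.81 and -0.57) and was called with E2 without replicate 1 (1.08, 0.0241).

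**Figure D4:**
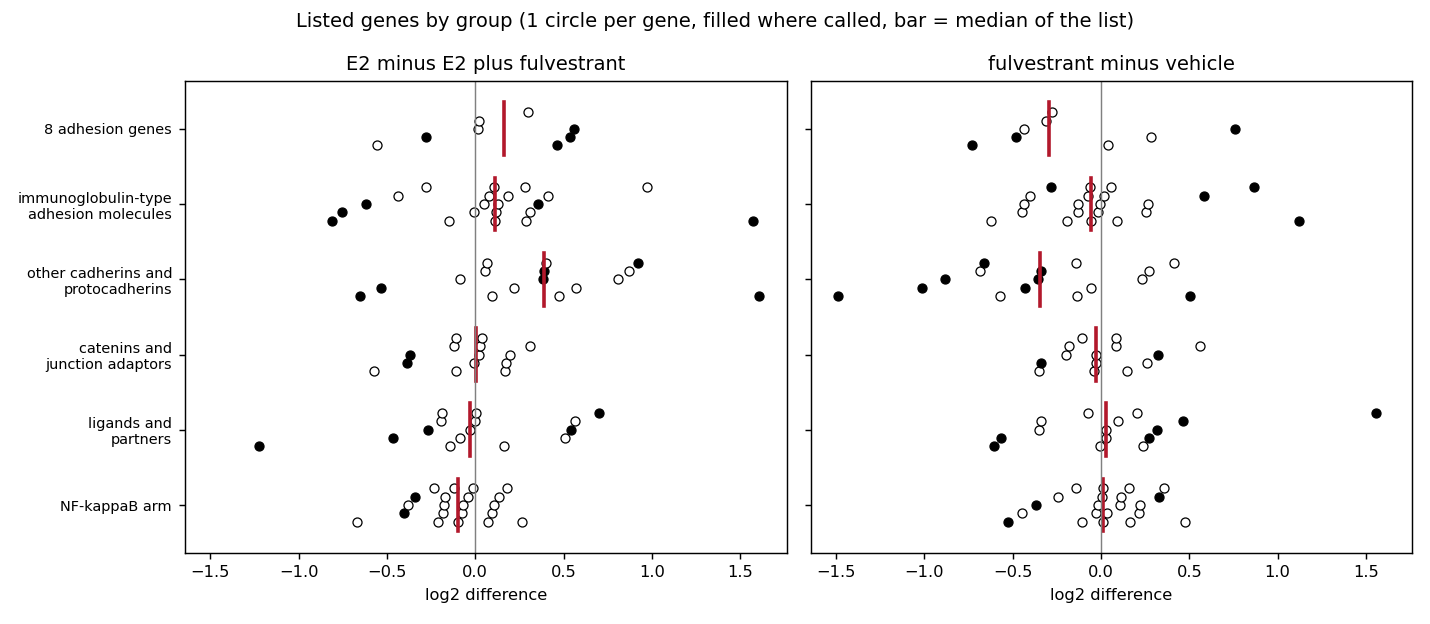
Log2 differences (horizontal axis) for E2 minus E2 plus fulvestrant (left) and fulvestrant minus vehicle (right), with 1 circle per listed gene in each group of genes, filled where called, and a red bar at the median of the group. The other cadherins and protocadherins have medians of 0.39 and -0.35, while the medians of the catenins and of the ligands and partners lie near 0.

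The proteins on the inner face of the junction were read next. Of 18 catenins and junction adaptors 14 were listed, with 0 called higher and 2 lower with E2 against E2 plus fulvestrant and 1 higher and 1 lower with fulvestrant against vehicle. At 14.3% of the list in each, these shares were near the 9.6% and 12.5% of all genes. Afadin (Afdn), which ties nectins to actin, was lower with E2 (-0.37, adjusted p 0.00456) and higher with fulvestrant (0.32, 0.0073). The catenin Arvcf was lower with E2 (-0.39, 0.0317), and the plakophilin Pkp4 was lower with fulvestrant (-0.34, 0.035). Without replicate 1 the calls of Arvcf (0.059), of Pkp4 (0.0689) and of Afdn with fulvestrant (a fold too small, 0.25) were lost. Pkp2 (-0.57 and 0.56), also picked in the study partly from these samples, and Lima1 (0.19 and -0.35) were called in neither, and Pkp2 was called with E2 without replicate 1 (-0.32, 0.0156). None of the 14 was called in either comparison without the block.

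Among 21 ligands and partners of the 8 genes 15 were listed, with 2 called higher and 3 lower with E2 against E2 plus fulvestrant, and 4 higher and 2 lower with fulvestrant against vehicle. These were 33.3% and 40.0% of the list, beside 9.6% and 12.5% of all genes. Lama4, the laminin chain bound by Mcam, had counts of 16910, 20085 and 18870 with E2 against 11646, 13514 and 13202, and its log2 difference was 0.54 (adjusted p 0.00153), with -0.61 (0.000657) for fulvestrant. Wnt5a, a secreted ligand, was higher with E2 (0.70, 0.000173) and lower with fulvestrant (-0.57, 0.000617), and it was also picked in the study, partly from these samples. Lama4 and Wnt5a were also called without the block in both comparisons, and no other of the 15 was called there in either. Lgals3, a galectin that binds surface glycans, had 688, 1367 and 1284 with E2 against 1876, 2794 and 2929, with log2 differences of -1.22 (0.000119) and 1.55 (2.4e-05). Ezr (ezrin), which links Icam proteins to actin, was at -0.47 (0.00731) and 0.46 (0.00631). Itga4, the integrin chain that binds Vcam1, had at most 98.6 normalized counts and was called in neither comparison (0.57 and -0.35).

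The NF-kappaB arm through which Vcam1 and Icam1 are induced had 21 of 22 genes listed, with 0 called higher and 2 lower by limma with E2 against E2 plus fulvestrant and 1 higher and 2 lower with fulvestrant against vehicle. These were 9.52% and 14.3% of the list, near the 9.6% and 12.5% of all genes. The medians were -0.10 and 0.01. Tnfaip3, a brake on NF-kappaB (-0.53, adjusted p 0.011), and Irf1 (-0.37, 0.00195) were lower with fulvestrant. Nfkbib, an inhibitor of NF-kappaB, was lower with E2 (-0.34, 0.0414) and was not called with fulvestrant (0.11). Tnfrsf1b, a TNF receptor, ran like Icam1 with E2 (-0.40, 0.0119) and was higher with fulvestrant (0.33, 0.0254). Cxcl1, a chemokine and textbook NF-kappaB target, was called in neither comparison (-0.67 and 0.47), and in both without replicate 1 (-0.53, 0.0113, and 0.46, 0.0175). None of the 21 genes of this arm was called in either comparison without the block. With E2 against vehicle none of the genes in these 5 lists was called by limma with the block.

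With fulvestrant present against absent, where 15.5% of all genes were called, the immunoglobulin-type molecules had 3 called higher and 1 lower, the other cadherins and protocadherins 2 higher and 8 lower, the catenins and adaptors 3 higher and 1 lower (28.6% of the list), the ligands and partners 3 higher and 4 lower, and the NF-kappaB arm 2 higher and 1 lower. Without the block, where 2.34% of all genes were called, only Pcdh18, Ezr, Lgals3, Lama4 and Wnt5a of these genes were. Without replicate 1, where 17.6% of all genes were called, the counts in the same order were 5 higher and 2 lower, 2 and 8, 2 and 0, 2 and 2, and 3 and 3. Some genes that were called in neither comparison above were called here. Pkp2 (0.56, adjusted p 0.0111) and Cxcl1 (0.57, 0.0128) were higher with fulvestrant, and Cdh26 (-0.69, 0.0107), Itga4 (-0.46, 0.0219) and Lima1 (-0.27, 0.0254) were lower. Each of these 5 also lost its call when 1 or more of the replicate numbers was left out.

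Of the 87 genes listed in the 5 lists 20 were called with E2 against E2 plus fulvestrant and 23 with fulvestrant against vehicle, beside 9.6% and 12.5% of all genes. Without replicates 1, 2 and 3 in turn, 18, 6 and 7 of the 20 were still called, while 12.2%, 2.58% and 2.39% of all genes were called in those fits. Of the 23, 16, 10 and 7 were still called, beside 17.5%, 4.08% and 3.02% of all genes. All kept their direction in these fits. Pcdh18, Wnt5a, Lgals3 and Pvr were called in both comparisons whichever replicate number was left out.

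Without replicate 1, where 12.2% of all genes were called with E2 against E2 plus fulvestrant and 17.5% with fulvestrant against vehicle, the counts of the lists were as follows. The immunoglobulin-type molecules had 3 higher and 4 lower with E2 against E2 plus fulvestrant and 4 higher and 2 lower with fulvestrant against vehicle, where Opcml was now among the lower ones (-1.13). The other cadherins and protocadherins had 6 higher and 2 lower in the E2 comparison and 1 higher and 4 lower in the fulvestrant comparison. The catenins and adaptors had 0 higher and 2 lower, then 1 higher and 0 lower. The ligands and partners had 2 higher and 2 lower, then 3 higher and 2 lower, and the NF-kappaB arm had 0 higher and 3 lower, then 2 higher and 3 lower.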

How the data were processed

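RNA was extracted with a column kit and libraries were made after ribosomal RNA depletion. The authors trimmed reads with Trimmomatic 0.39, removed ribosomal reads, aligned with STAR 2.5.2 to mm10, counted genes by strand with HTSeq 0.13.5, removed counts under 10, and divided each library by a DESeq2 1.37 size factor. The deposited signal is this normalized count, 1 column per sample for 13233 genes. Each column became whole within 0.01 after multiplication by 1 factor, and the reads inferred in this way gave the depth of 18827792 to 44040507 reads. No count test was run on them, since the table holds no value of a few reads from which a step of 1 read could be seen directly. The study reduced batch effects without naming the batches.

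Here log2(normalized count + 1) was fitted with limma 3.58.1 (R 4.3.3; lmFit, eBayes with trend) over all 12 samples with group and replicate number as terms, after the script was tested on simulated data. Fold changes are on that scale. Symbols and exon lengths came from GENCODE M21, which named 13154 genes. Same-numbered samples deviated together: their correlations of deviations from the group means were 0.631 to 0.923 over 18 pairs. Replicate 1 stood apart in every group, and centring on the group mean then gives the other samples of that group a shared deviation. Differently numbered samples were not compared. The correlations can therefore reflect replicate 1 alone and do not show whether the other replicate numbers were matched across groups. The block rests on the distance of replicate 1, since the labels do not say what a number shares. Intervals are 95%. Alternatives were no block, the compared groups alone, a pseudocount of 10, a mean of at least 100, quantile normalization, equal totals and leaving out each replicate number. The named genes were the 8, up to 5 called genes per list, largest change first, and the 3 genes most like each of the 8. The 8 genes and the lists were chosen with earlier results of these data known. For 1 gene the values are not reported here, and it was left out of its list.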

Additional observations from a re-analysis of the deposited data

How the results depend on the processing

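The replicate block decided most calls. With no replicate block, genes called dropped from 1270 to 69 for E2 against E2 plus fulvestrant, from 1648 to 72 for fulvestrant against vehicle, from 10 to 1 for E2 against vehicle, and from 2054 to 310 for fulvestrant present against absent. Of the 8 genes, 0, 0 and 1 were then called for the first, second and last of these, in place of 4, 3 and 5. Fitting only the 2 groups compared, with the replicate block, gave 692 genes and 1 of the 8 for fulvestrant against vehicle and 57 genes for E2 against vehicle. Leaving out each replicate number in turn gave 316 to 1611 genes and 0 to 4 of the 8 for E2 against E2 plus fulvestrant, 399 to 2312 genes and 1 to 4 of the 8 for fulvestrant against vehicle, 0 to 59 genes for E2 against vehicle, 0 to 4 for E2 plus fulvestrant against fulvestrant, 0 to 11 for the interaction and 1335 to 2332 for fulvestrant present against absent. The cause was not tested, and 8 samples remained in each of these fits. Without replicate 1 the counts were the highest of each range for all genes.

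Values of the 8 genes that were called kept their direction in every alternative and kept the call in 73 of 103. Uncalled values changed sign in 13 alternative fits. As a replicate number was left out, E2 against vehicle ran from -0.206 to 0.166 for Ncam1, from -0.201 to 0.000431 for Cdh11 and from -0.0568 to 0.00401 for Vcam1. E2 against E2 plus fulvestrant ran from -0.0802 to 0.102 for Alcam and from -0.0412 to 0.0559 for Mcam, and fulvestrant against vehicle from -0.0376 to 0.112 for Icam1 and from -0.000422 to 0.19 for Nfkbib. E2 plus fulvestrant against fulvestrant ran from -0.142 to 0.0756 for Vcam1 and from -0.0246 to 0.091 for Icam1, and the interaction from -0.0726 to 0.0851 for Vcam1. Quantile normalization gave -0.0198 for Vcam1 in E2 plus fulvestrant against fulvestrant and -0.0137 for Mcam in E2 against E2 plus fulvestrant. The same total per sample gave -0.00428 for that value of Vcam1 and -1.9e-05 for Icam1 in fulvestrant against vehicle. Tests on reads with edgeR and DESeq2 were planned and not run, since the deposited values are normalized and their reads are only inferred. Mcam had the fewest reads of the 8 genes, 63 to 182 inferred per library, which limits what can be seen for it.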
